A study of Mus musculus with 5 samples.

Results

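The proteasome subunit genes were examined in the thyroid of mice with an oncogenic Braf allele, on chow or on a high fat diet (HFD). A total of 49 genes in the deposited table had a symbol of the Psma to Psmg series. Removal of the 3 immunoproteasome genes Psmb8, Psmb9 and Psmb10 left 46 members of the 16413 genes listed. Of these, 15 encode the core particle, 17 encode the regulatory particle and 14 encode assembly chaperones, activators, an inhibitor or a protein only named after a subunit. All 46 passed the filter on low counts and were tested.

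Every animal in both groups had the genotype LSL-BrafV600E;TgCreERT2, in which a Cre recombinase that needs tamoxifen is driven by the thyroglobulin promoter and opens the mutant Braf allele in thyroid follicular cells. Tamoxifen was injected for 1 week at 8 weeks of age, and the diets ran for 12 weeks, from 10 to 22 weeks of age. Libraries of the gland's RNA numbered 2 for chow, as replicates 2 and 8, and 3 for HFD, as replicates 2, 9 and 10. No animal without the mutation was analysed here, and since the labels do not say that the numbers are separate animals, the spread behind the p-values may be technical.

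The proteasome degrades proteins tagged with ubiquitin. Its core is a barrel of alpha rings, which form the gate, and beta rings, which hold the proteolytic sites inside. The regulatory particle caps the barrel: a base with a ring of ATPases unfolds the substrate, and a lid removes the ubiquitin chain. In many cells the subunit genes are induced together by the transcription factor Nrf1 (gene Nfe2l1) when proteolysis falls short. In thyroid follicular cells, as in other secretory cells, the proteasome takes up proteins rejected by the endoplasmic reticulum.

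None of the proteasome genes passed the test between the diets. In edgeR's quasi-likelihood test 0 of the 46 had an adjusted p under 0.05, where the share over all 15765 genes tested was 0%, and the lowest adjusted p among members was 0.983, that of Psmb4. At an unadjusted p under 0.05 the count was again 0 members, against 5.42% of all genes tested. DESeq2 gave 0 members at either threshold, against 0.59% of all genes at the adjusted and 6.13% at the unadjusted one. Limma-voom gave 0 members at either threshold too, against 0% and 5.09%. The log2 fold changes of high fat diet over chow ran from -0.17 for Psmb2 to 0.18 for Psmc3ip, with a median of 0.026 beside 0.012 over all genes. They were above 0 for 25 members and below 0 for 21, where 52.7% of all genes were above 0. In bulk tissue, fewer cells of a type and less RNA per cell cannot be told apart.

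The 95% intervals, taken gene by gene with TMM scaling, gave a range for each fold change. If the libraries of a diet are not separate animals, these intervals do not bound a difference between animals on the 2 diets. For 42 of the 46 members the whole 95% interval of the fold change lay within 1.5-fold either way, as it did for 56.9% of all genes tested. The 4 others were Psma8, Psmc3ip, Psmg3 and Psmg4, all of low count. All 31 subunits of the core and the regulatory particle other than Psma8 lay within that bound. In the span of mean CPM that these 31 subunits cover, from 30.4 to 152 CPM, 86.7% of 4675 genes did so. Over the 31 subunits the highest absolute log2 fold change was 0.17 and the median was 0.047, beside a median of 0.087 over genes in the same span.

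**Figure D1:**
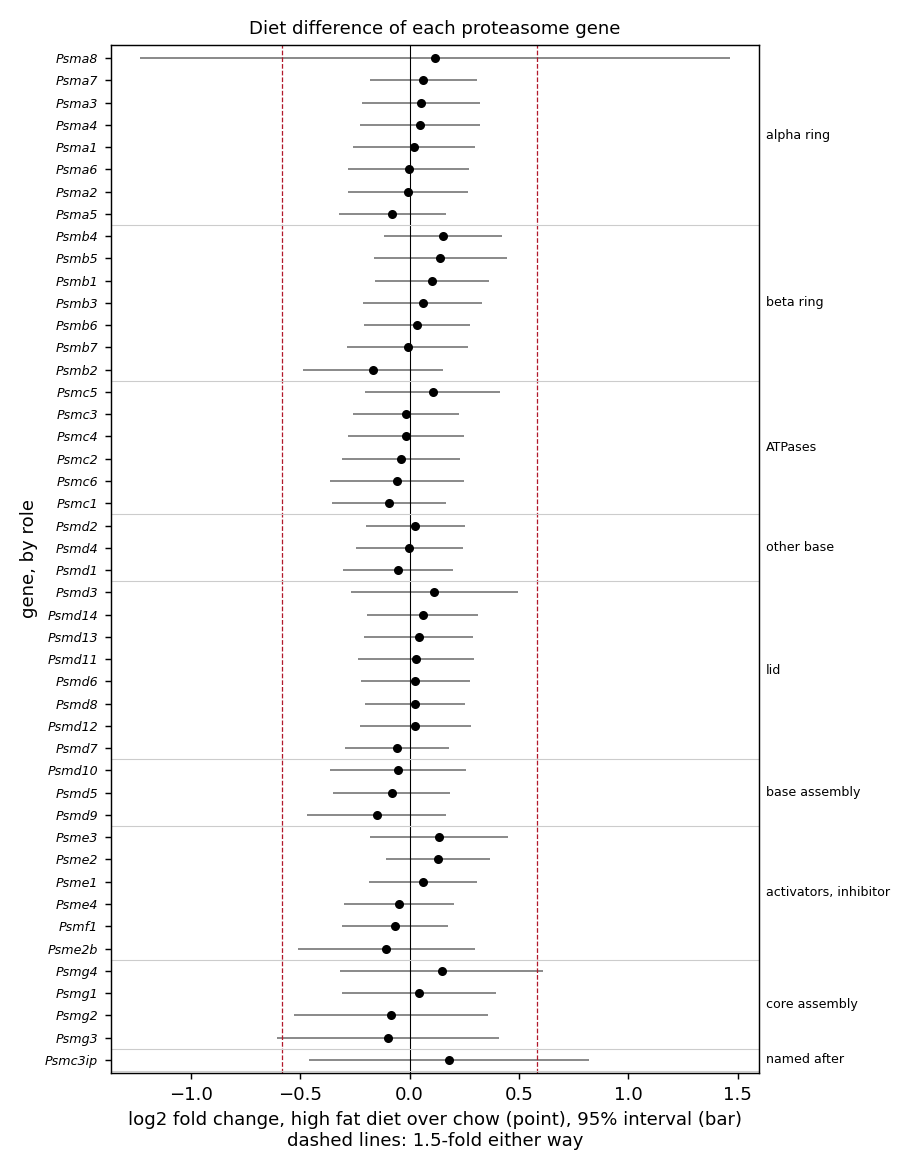
Log2 fold change of high fat diet over chow (point) with its 95% interval (bar) for each of the 46 proteasome genes, grouped by role, with dashed lines at 1.5-fold either way. Each of the 46 intervals crosses 0, and 42 lie between the dashed lines.

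For most subunits, as for most genes, the difference between the diet means of log2 CPM was smaller than the SD within diets. This held for 28 of the 31 subunits (90.3%) and for 64.4% of genes in the same span of mean CPM. The subunits share the same 5 libraries and are not separate observations. Across all 5 libraries the coefficient of variation of a subunit's CPM ran from 2.61% for the lid subunit Psmd7 to 15.2% for the lid subunit Psmd3. The median SD of log2 CPM was 0.109 over subunits and 0.128 over genes in the same span of CPM, and 25 of the 31 subunits lay below the latter.

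Levels per length are given as the deposited FPKM, averaged over the 5 libraries. Among the members, Psmb3 of the beta ring stood highest at 91.7 ± 7.02 FPKM (SD, n = 5). The activator gene Psme1 came next at 88.4 ± 7.99, then the beta ring genes Psmb1 at 85.7 ± 7.90 and Psmb4 at 85.1 ± 9.85. All of these lay within each other's spread. Among alpha subunits Psma2 led at 81.2 ± 4.62 FPKM and Psma5 was lowest of those that all cells use, at 34.3 ± 0.404 FPKM. Psma8, which replaces Psma7 in male germ cells, was near absent at 0.151 ± 0.0603 FPKM, from 8 to 21 counts per library. The 17 regulatory members had a median of 36.9 FPKM and a range from 14.2 (Psmd3) to 64.6 (Psmc3), beside a core median without Psma8 of 72.0 FPKM. Sem1, a lid subunit gene without a Psm symbol and so not a member, stood above all of them at 98.4 ± 11.5 FPKM.

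**Figure D2:**
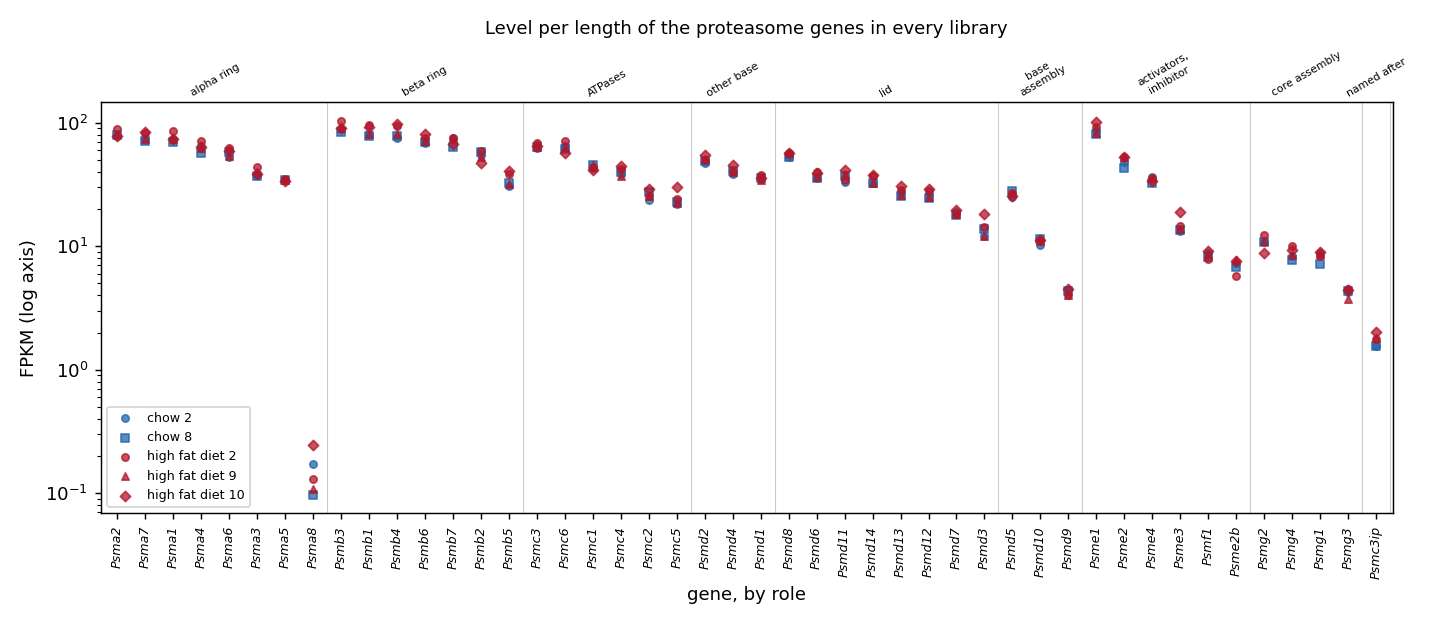
FPKM (log axis) of each proteasome gene in each of the 5 libraries, by role and in falling order within a role. Blue marks are chow and red marks are high fat diet, and most genes' libraries sit almost on each other, with Psma8 the exception at 0.0975 to 0.246 FPKM.

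The catalytic subunits carry the active sites. Psmb5, the chymotrypsin-like subunit and the main target of bortezomib (gene ID 19173, chromosome 14 from 54614119 to 54618022 in mm10), stood at 27.5 and 30.8 CPM on chow and at 34.8, 28.0 and 33.8 CPM on HFD. HFD replicates 2 and 10 lay above both chow libraries, and replicate 9 lay between them. Its log2 fold change was 0.14 (SE 0.13), with 95% limits of -0.16 and 0.44. Psmb6, the caspase-like subunit (gene ID 19175, chromosome 11 from 70525367 to 70527858), stood at 72.9 and 79.2 CPM on chow and at 80.5, 73.2 and 79.9 CPM on HFD, a log2 fold change of 0.034. Psmb7, the trypsin-like subunit (gene ID 19177, chromosome 2 from 38588036 to 38644087), stood at 74.7 and 66.9 CPM on chow and at 75.8, 72.9 and 62.3 CPM on HFD, a log2 fold change of -0.0090. The diet groups overlapped for all 3 catalytic genes. Psmb5 was the least abundant of the 3 per length, at 34.8 ± 4.36 FPKM beside 72.9 ± 4.92 for Psmb6 and 71.2 ± 5.44 for Psmb7. Part of the exonic sequence of Psmb5 (12.1%) is shared with Mir686 on the same strand, and 11.8% of that of Psmb7 lies opposite Nek6.

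Among the non-catalytic beta subunits, Psmb4 and Psmb2 marked the ends of the range for the core. Psmb4, the last subunit to join the beta ring, stood at 73.6 and 80.7 CPM on chow and at 92.4, 76.8 and 88.4 CPM on HFD. Its log2 fold change was 0.15 (SE 0.12), and HFD replicate 9 lay between the chow libraries. Psmb2, an early subunit in beta ring assembly, stood at 48.0 and 52.8 CPM on chow and at 51.7, 44.7 and 38.3 CPM on HFD. HFD replicate 10 was its lowest library, and the log2 fold change of -0.17 (SE 0.14) went to -0.065 without that library. It went to -0.28 without HFD replicate 2 and stayed below 0 in every alternative fit. The other non-catalytic beta genes were at 0.10 for Psmb1 and 0.060 for Psmb3.

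The alpha ring forms the gate through which substrates enter. Its 7 generally expressed members had log2 fold changes from -0.080 for Psma5 to 0.062 for Psma7. Psma5 stood at 42.8 and 45.5 CPM on chow and at 44.2, 41.7 and 39.4 CPM on HFD. Psma8 stood at 0.324 and 0.195 CPM on chow and at 0.232, 0.199 and 0.415 CPM on HFD. Its log2 fold change of 0.12 had an interval from -1.23 to 1.47, and it went to -0.27 without HFD replicate 10 and to -0.20 without chow replicate 8. At this depth a difference in Psma8 within the limits of that interval could not be told from none.

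In the regulatory particle, the ATPases thread the substrate into the core. Of the 6 ATPase genes, 5 had a log2 fold change below 0 and 1, Psmc5, above 0. Psmc5 stood at 28.9 and 31.7 CPM on chow and at 31.9, 28.7 and 37.1 CPM on HFD. Its log2 fold change of 0.11 went to 0.0028 without HFD replicate 10 and to 0.19 without HFD replicate 9. Psmc1 stood at 65.7 and 73.2 CPM on chow and at 67.4, 68.5 and 59.1 CPM on HFD, with -0.095. For both genes the highest or lowest of all libraries was HFD replicate 10. The 4 other ATPase genes lay between -0.058 for Psmc6 and -0.016 for Psmc3.

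The other base subunits are scaffolds and receptors for ubiquitin and ubiquitin-like domains. Psmd2, the scaffold that binds shuttle factors, stood at 143 and 157 CPM on chow and at 154, 151 and 154 CPM on HFD. Psmd1 stood at 117 and 127 CPM on chow and at 128, 113 and 111 CPM on HFD. Their log2 fold changes were 0.026 and -0.054, and that of the ubiquitin receptor Psmd4 was -0.0019. In the lid, 7 of 8 genes were above 0, with a median of 0.028 and a range from -0.059 for Psmd7 to 0.11 for Psmd3. Psmd7, the partner of the deubiquitinase Psmd14, stood at 31.3 and 31.1 CPM on chow and at 30.2, 29.3 and 30.3 CPM on HFD. Its groups did not overlap, over a gap smaller than 1 CPM. Psmd3 stood at 27.0 and 32.2 CPM on chow and at 32.2, 26.1 and 37.8 CPM on HFD, and its fold change went to -0.022 without HFD replicate 10 and to -0.014 without chow replicate 2. Psmd14, which cuts the chain from the substrate, had 0.060.

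Assembly chaperones build the particle and are not part of it afterwards. Among the chaperones of the base, Psmd9 stood at 11.9 and 12.2 CPM on chow and at 10.9, 10.5 and 11.2 CPM on HFD, so that all HFD libraries lay below both chow libraries. Its log2 fold change was -0.15 (SE 0.14) and did not pass (edgeR adjusted p = 0.996). Psmd10 (gankyrin), which is also known as an oncoprotein in liver, stood at 15.4 and 18.1 CPM on chow and at 16.8, 16.01 and 15.6 CPM on HFD, and Psmd5 had -0.082. Of Psmd9's exonic sequence, 25.5% lies opposite the predicted gene Gm26745. Among the chaperones of the core, Psmg4 stood at 4.54 and 4.43 CPM on chow and at 5.62, 4.48 and 4.79 CPM on HFD. Psmg3 stood at 3.70 and 3.94 CPM on chow and at 3.96, 3.17 and 3.58 CPM on HFD. The groups overlapped for both, with log2 fold changes of 0.15 and -0.099, and Psmg1 and Psmg2 had 0.043 and -0.084.

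Activators can replace the regulatory particle on the core. Psme1 and Psme2 form the activator that interferon induces and lie 5911 bases apart on chromosome 14. Psme2 stood at 44.6 and 41.9 CPM on chow and at 49.3, 47.1 and 45.6 CPM on HFD, so that all HFD libraries lay above both chow libraries. Its log2 fold change was 0.13 (SE 0.10) and did not pass (edgeR adjusted p = 0.986), and Psme1 had 0.060. Psme3, the nuclear activator, stood at 36.1 and 38.6 CPM on chow and at 39.5, 36.01 and 47.7 CPM on HFD, highest in replicate 10. Its log2 fold change of 0.14 became 0.015 without that library, and reached 0.22 at most with another library left out. Psme4, the activator known from DNA repair and spermatogenesis, had -0.049 and the inhibitor Psmf1 had -0.065. Psme2b, annotated as a retrogene, stood at 8.03 and 7.86 CPM on chow and at 6.30, 8.16 and 7.70 CPM on HFD. Its transcript matched that of Psme2 at 789 of 794 aligned bases (99.4%), so the counts of this pair are uncertain. Psmc3ip, a meiotic recombination factor that binds the subunit for which it is named, stood at 1.57 and 1.66 CPM on chow and at 1.82, 1.77 and 1.90 CPM on HFD. Its log2 fold change of 0.18 had an interval from -0.46 to 0.82, and 21.2% of its exonic sequence lies opposite Mlx.

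In all, the HFD libraries lay above both chow libraries for 2 members, Psme2 and Psmc3ip, where 10.6% of all genes did, and below both for 3, Psmd7, Psmd9 and Psmf1, where 10.3% did. In the authors' deposited table, 1 member, Psmd9, had an unadjusted p under 0.05 (0.043, signed fold of chow over high fat diet 1.11), where 3.87% of all 16413 genes did, and the lowest adjusted p of any member was 0.971. The signed fold in the authors' deposited table ran from -1.09 to 1.14 over the members.

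The core was then set against the regulatory particle. The median log2 fold change was 0.047 over the 15 core genes, 10 of them above 0, and 0.026 over the 17 regulatory genes, 9 of them above 0. With each library left out in turn, the core median ran from -0.038 (without HFD replicate 2) to 0.076 (without HFD replicate 9). The regulatory median then ran from -0.058 (without chow replicate 2) to 0.061 (without chow replicate 8), and was -0.030 without HFD replicate 2. Without Psma8 the core median was 0.041, with 9 of 14 genes above 0. Over the 20 Psmc and Psmd genes, which add the base chaperones to the regulatory particle, the median was -0.0090. The summed FPKM of the core was 889 and 871 on chow and 1009, 904 and 949 on HFD. That of the regulatory particle was 612 and 625 on chow and 659, 628 and 676 on HFD. Both sums were higher in every HFD library than in either chow library on the FPKM scale. On that scale 15 of 46 members lay above both chow libraries and 0 below, where the shares over all genes were 19.6% and 5%. Beside these sums, Tg, the thyroglobulin transcript, took 18.7% and 22.1% of counts on chow and 17.1%, 14.9% and 10.9% on HFD, and its part in the FPKM sums was not tested.

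With TMM scaling the groups overlapped. The summed CPM of the core was 957 and 987 on chow and 1096, 948 and 946 on HFD, and that of the regulatory particle was 1106 and 1193 on chow and 1201, 1107 and 1135 on HFD. As a share of counts without Tg, the 46 members took 0.321% and 0.329% on chow and 0.341%, 0.312% and 0.314% on HFD. The ratio of core to regulatory summed FPKM, which does not depend on the scaling of a library, was 1.45 and 1.39 on chow and 1.53, 1.44 and 1.40 on HFD. Its mean was 1.42 ± 0.0414 (SD, n = 2) on chow and 1.46 ± 0.0662 (SD, n = 3) on HFD, and the groups overlapped.

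**Figure D3:**
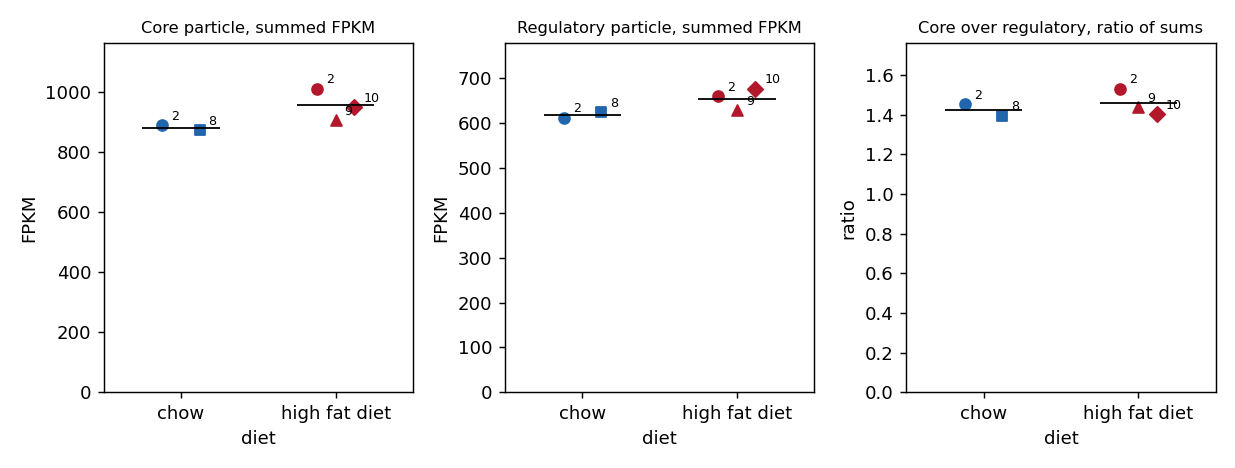
Summed FPKM of the core genes (left) and of the regulatory particle genes (middle), and the ratio of these sums (right), in each library; points are libraries with their replicate number and lines are group means. The FPKM sums are higher in all HFD libraries, while the ratios, from 1.39 to 1.53, overlap.

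Measured from each gene's own mean, the core and regulatory medians differed in direction in chow replicate 8 and HFD replicate 10. In the other libraries they had the same direction. In HFD replicate 2 all 14 core subunits other than Psma8 were above their own mean over the 5 libraries, with a median deviation of 0.17 in log2 CPM, and 14 of 17 regulatory subunits were above theirs, with a median of 0.064. In chow replicate 8 the core had 6 of 14 above their mean, with a median deviation of -0.0040, and the regulatory particle 15 of 17, with 0.050. In HFD replicate 10 these counts were 5 of 14, with a median deviation of -0.092, and 10 of 17, with a median of 0.033. HFD replicate 9 had 1 of 14 and 3 of 17 above their mean, and chow replicate 2 had 4 of 14 and 2 of 17. Over all genes tested, 49.1% to 51.6% were above their mean in each library. The highest and the lowest core median thus both fell in the high fat diet group.

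**Figure D4:**
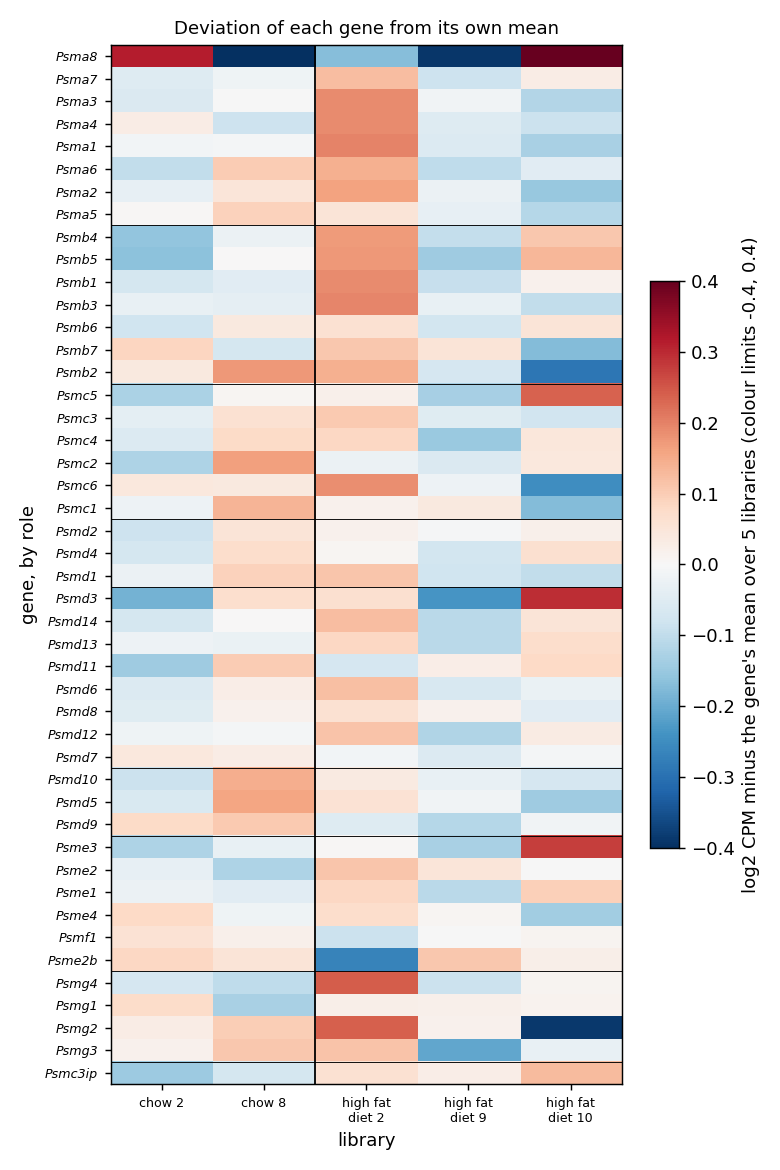
Log2 CPM of each proteasome gene minus its own mean over the 5 libraries, by role and library, with colours limited to -0.4 and 0.4; red is above the mean and blue below, and the vertical line parts chow from high fat diet. The 14 core rows other than Psma8 are red in HFD replicate 2, while replicate 10 holds both blue rows, such as Psmb2, and red rows, such as Psmd3.

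HFD replicate 10 differed from the other HFD libraries in opposite directions for different subunits. Against the mean of replicates 2 and 9, its log2 CPM was higher by 0.38 for Psmd3, by 0.29 for Psmc5 and by 0.12 for Psmb5. The difference was -0.33 for Psmc6, -0.33 for Psmb2 and -0.22 for Psma2. Transcripts of Psmd3 and Psmb5 have a GC content of 58.3% and 56.6%, those of Psmc6 and Psma2 of 37.0% and 39.4%. Psmc5 and Psmb2, with opposite differences, have nearly the same GC content, 51.6% and 51.0%. Across the 31 subunits, which share these libraries, this difference had a Pearson r of 0.549 and a Spearman rho of 0.517 with GC content. Over 15546 genes r was 0.248 and rho 0.381. For the difference between HFD replicates 2 and 9 the subunits gave r = -0.0636, beside 0.0422 over all these genes. For that between chow replicates 8 and 2 they gave r = 0.335, beside 0.085. For the log2 fold change of high fat diet over chow they gave r = 0.237, beside 0.114. The part of GC content in the values of the named subunits was not tested.

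**Figure D5:**
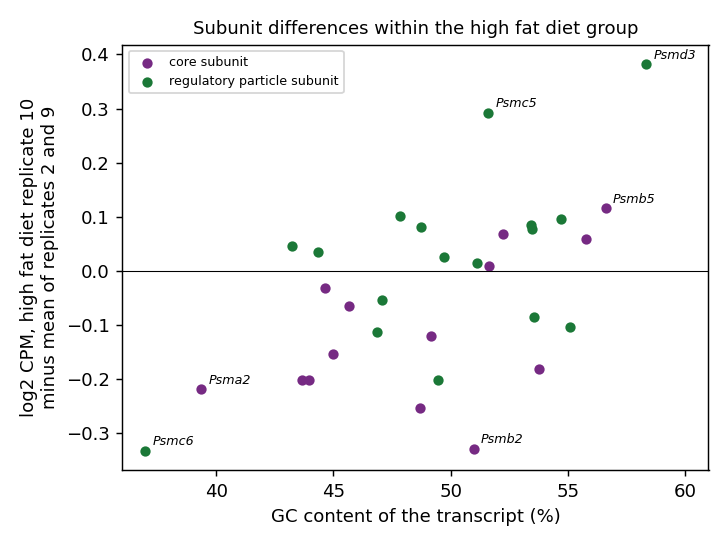
Difference in log2 CPM between HFD replicate 10 and the mean of replicates 2 and 9 against the GC content of the transcript, for 31 subunits of the core (purple) and the regulatory particle (green). Psmc6 at 37.0% GC is lowest and Psmd3 at 58.3% GC is highest, with a wide scatter between them (r = 0.549).

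HFD replicate 10 also had the highest airway markers. All 8 thyrocyte markers were measured, Tg foremost, and their summed CPM ran from 190028 to 237762 on chow and from 104006 to 175346 on HFD, nearly all of it Tg. The markers went both ways: 4 of the 8 (Nkx2-1, Foxe1, Slc5a5 and Slc26a4) lay above both chow libraries in every HFD library and 3 (Tg, Tshr and Pax8) lay below. The shares over all genes tested were 10.6% above and 10.3% below. Slc5a5, the iodide transporter, had a log2 fold change of 1.36 (edgeR adjusted p = 0.0731, DESeq2 adjusted p = 5.24e-09). The 8 airway epithelium markers summed to 626 to 815 CPM on chow and 816 to 6184 CPM on HFD, the latter in replicate 10. Most of that sum in replicate 10 was Muc5b, at 4638 CPM, and Bpifa1, at 1375 CPM. Skeletal muscle markers summed to 631 to 1752 CPM on chow and 933 to 1613 CPM on HFD, and the 6 adipocyte markers to 66.7 to 85.0 and 24.6 to 42.9 CPM. Of these 6, 4 lay below both chow libraries in every HFD library, while Lep had a log2 fold change of 0.77. Cfd and Cidec passed in DESeq2 (adjusted p = 0.00089 and 0.0051), where 0.59% of all genes did, and not in edgeR (adjusted p = 0.596 and 0.336). The sums on chow and high fat diet were 173 to 225 and 178 to 228 CPM for macrophages and neutrophils, 4352 to 5420 and 3553 to 6861 CPM for fibroblasts, and 296 to 375 and 355 to 452 CPM for endothelium. They were 285 to 289 and 232 to 542 CPM for C cells, and 5.35 to 6.67 and 4.15 to 4.89 CPM for the 5 of 7 lymphocyte markers tested. The close C cell sums on chow hid opposite differences between its libraries. In chow replicates 2 and 8 Calca stood at 161 and 286 CPM, and Chga at 123 and 0.901 CPM. Calcb lay above both chow libraries in every HFD library (DESeq2 adjusted p = 0.019, edgeR adjusted p = 0.484). Both parathyroid markers, Pth and Gcm2, were looked up and were not among the genes tested. The part of these cells in the proteasome values was not tested.

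The rest of the pathway was described from lists of 38 genes outside the members, 37 of them tested. Of these, 0 passed in edgeR (Benjamini-Hochberg over all genes) and 0 in DESeq2, where the shares over all genes were 0% and 0.59%. In edgeR 1 gene, Bach1, had an unadjusted p under 0.05, where 5.42% of all genes did. The log2 fold changes were above 0 for 20 and below 0 for 17, with a median of 0.0097. The inducible catalytic genes Psmb8, Psmb9 and Psmb10, which replace Psmb5, Psmb6 and Psmb7 under interferon, had 0.049, 0.026 and 0.014. The ratio of their summed FPKM to that of the constitutive trio was 0.292 and 0.249 on chow and 0.266, 0.265 and 0.277 on HFD. The regulatory subunit genes that lack a Psm symbol, Adrm1 and Sem1 (listed as Shfm1), had -0.087 and 0.15, and the maturation factor Pomp had -0.018. Usp14 and Uchl5, deubiquitinases bound to the particle, had -0.14 and -0.16. The shuttle gene Rad23b had 0.21, the segregase gene Vcp had 0.036, and Zfand5, which stimulates the particle, had -0.27. For the ubiquitin gene Ubb the value was -0.072.

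Transcription factors that act on the subunit genes include Nrf1 and Nrf2 and their competitor Bach1. Nfe2l1 stood at 163 and 177 CPM on chow and at 159, 166 and 195 CPM on HFD, a log2 fold change of 0.025. Nfe2l2 stood at 255 and 283 CPM on chow and at 256, 247 and 229 CPM on HFD, a log2 fold change of -0.14. Bach1, a repressor that binds the same element, stood at 135 and 139 CPM on chow and at 104, 112 and 101 CPM on HFD. All HFD libraries lay below both chow libraries for Bach1, and its log2 fold change of -0.37 (SE 0.10) did not pass (edgeR adjusted p = 0.618, DESeq2 adjusted p = 0.073).

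The promoters were searched for the core of the element to which these factors bind, TGACNNNGC on either strand, in the window from 250 bases before to 50 after the start of the gene. Of 38 members with a RefSeq promoter sequence, 6 held it (15.8%), beside 14.0% of 27025 genes (2 of 11 core genes and 2 of 14 regulatory genes among the members). The CCAAT box, searched as CCAAT on either strand, was in 13 of the 38 (34.2%), beside 41.1% of all genes. The matches of the catalytic genes Psmb5 and Psmb6, of both regulatory genes and of Psmd9 are shown with the match in capitals, read along the gene's strand, in GRCm38.p6, and the remaining match is that of Psme4. Counted from the start in the RefSeq promoter table, which is not the GENCODE gene start printed above for Psmb5 and Psmb6 and lies inside the GENCODE gene for Psmd9, they lie 47 bases before it for Psmb5, 9 for Psmb6, 227 for Psmc6, 247 for Psmd12 and 31 for Psmd9.
Psmb5 (chr14:54618009-54618067, minus strand): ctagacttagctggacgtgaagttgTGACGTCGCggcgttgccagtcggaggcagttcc
Psmb6 (chr11:70525323-70525356, plus strand): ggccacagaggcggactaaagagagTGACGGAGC
Psmc6 (chr14:45329574-45329630, plus strand): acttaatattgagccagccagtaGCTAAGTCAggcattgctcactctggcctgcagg
Psmd12 (chr11:107479278-107479314, plus strand): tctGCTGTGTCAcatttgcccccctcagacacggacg
Psmd9 (chr5:123228134-123228189, plus strand): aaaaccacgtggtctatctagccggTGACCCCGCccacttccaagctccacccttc
The genes with these matches had log2 fold changes of 0.14 for Psmb5, 0.034 for Psmb6, -0.058 for Psmc6, 0.026 for Psmd12 and -0.15 for Psmd9. A match describes these letters in this window and not a binding site.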

How the data were processed

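Gene-level RNA-seq values of mouse thyroid were analysed in 2 chow and 3 high fat diet libraries made with a stranded total RNA kit, per the labels' protocols, and grouped by the labelled diet. Per the file headers, the deposited values are raw read counts and length-scaled FPKM for each gene; both sheets of the file hold the same counts and FPKM in all 5 libraries. The submitters' processing notes name HISAT2, StringTie, DESeq2 and the build mm10, without versions or roles, and the sources used here do not say how strand entered the counting. The authors' deposited table has besides a signed fold score, p-values and adjusted p-values per gene; it is quoted only where named. Column names write HED for HFD; treatment and number gave the match. Another 3 count columns, which match no sample analysed, were left aside.

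Members are the genes whose symbol starts with Psm, a letter from a to g and a digit, without Psmb8, Psmb9 and Psmb10. Counts of all 16413 listed genes entered edgeR 4.0.16 (R 4.3.3) with TMM factors, filterByExpr, which left 15765 genes, and the robust quasi-likelihood test on diet. Benjamini-Hochberg adjustment ran over all genes tested with a threshold of 0.05. CPM are counts scaled to the TMM-adjusted library size. Total counts ran from 43494747 to 52663677 per library. Sets of members are described by counts and medians without a test. Values in every library are given for the 3 constitutive catalytic genes, the member of highest and lowest fold change in each role, and the 5 of smallest p. The members, lists and tests were chosen with earlier results of these data known. The fits were tested on simulated counts. Alternatives were other factors, filters and tools (DESeq2 1.42.0, limma 3.58.1), counts without Tg, and leaving out each library. Promoters came from RefSeq (GRCm38.p6) and positions and transcripts from GENCODE for mm10. Results for some genes of the wider pathway are not reported here.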

Additional observations from a re-analysis of the deposited data

How the results depend on the processing

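No proteasome gene passed the threshold in either direction in any of the 14 alternative fits, nor had one an unadjusted p under 0.05 there, and the lowest adjusted p of a member in any of them was 0.788. With library size alone and no scaling factors, 40 members were above 0, the median over all genes was 0.097, and 15 members turned from below to above 0, among them Psma5 (0.0039), Psmb7 (0.070), Psmd1 (0.029), Psmd10 (0.032) and Psmd7 (0.026). Over all genes DESeq2 called 47 up and 46 down under HFD, against 0 and 0 in edgeR. Leaving out 1 library gave 0 to 2 genes higher and 0 to 3 lower, and 18 to 31 members above 0, with the fold changes of 26 members crossing 0. Among the genes given by library, log2 fold changes then ran from -0.030 to 0.098 for Psmb6, -0.083 to 0.071 for Psmb7, -0.044 to 0.098 for Psmd2, -0.022 to 0.25 for Psmd3, -0.27 to 0.53 for Psma8, -0.13 to 0.0072 for Psmd1 and -0.17 to 0.070 for Psmd10. The cause of these sign changes was not tested. No paired analysis was possible because the diets share only 1 replicate number. The ratio of core to regulatory FPKM without each library was added after the data were seen. Depth limits Psma8 most, with 8 to 21 counts per library and the widest interval of the 46.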
